A study of Mus musculus with 8 samples.

Results

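The mitosis genes described here are 38 named genes that act in G2 and M phase, the stages in which a cell prepares for and carries out division. They were taken from a fixed list of names, which was chosen with earlier results of these data known. By role they were divided into cyclins, kinases, the anaphase-promoting complex, chromosomal passenger proteins, kinesins, kinetochore proteins, spindle proteins, cytokinesis proteins and chromosome proteins. All 38 were among the 24921 gene symbols and unnamed accessions of the count tables, and 32 had enough reads to be tested. PolyA RNA-seq counts, from a strand-marking kit and 40-base single reads, came from 8 libraries of mouse V6.5 embryonic stem (ES) cells, a C57BL/6-129 line kept in 2i medium on gelatin, with 2 libraries in each of 4 groups. The first pair of groups came from V6.5 cells whose OCT4 protein carries an added Fkbp domain, by which dTAG compounds steer the fusion protein to degradation in the cell. One of these groups had received dTag9 and the other DMSO, each for 24 h, and both carry the fusion. The second pair came from untagged V6.5 cells, in which LIF, a cytokine that holds ES cells in the naive state, had been withdrawn for 5 days or was present as usual. The labels do not say whether the 2i inhibitors were removed together with LIF. The labels do not say whether the tagged line is a clone or whether the libraries of a group came from separate cultures, so a p-value here weighs a difference against a spread that could be purely technical.

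As background, entry into mitosis is set off by the kinase CDK1 bound to cyclin A or cyclin B, together with the Polo and Aurora kinases. Kinesins and spindle proteins then build the spindle, kinetochores tie chromosomes to it, and a checkpoint holds back the anaphase-promoting complex until every chromosome is attached. CDC20 then activates that complex, which marks cyclin B for destruction, and the cell divides in cytokinesis. The genes for these proteins are transcribed late in the cell cycle, through the MuvB proteins with B-MYB and FOXM1 at a promoter element called the cell cycle genes homology region (CHR) and through NF-Y at CCAAT boxes. Mouse ES cells divide fast and spend little time in G1.

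That shared promoter layout is visible, in whole or in part, in the sequences, which are shown for 6 members whose RNA levels are described next. RefSeq promoters of build GRCm38.p6, each running from 250 bases before to 50 bases after the annotated start, could be matched by symbol for 33 of the 38 genes. A CHR, searched as TTTGAA or TTCGAA on both strands, was present in 27 of these 33 promoters (81.8%), against 13.3% of the 8050 promoters of tested genes and 19.4% of all 27025 promoters. In 25 of the 33 (75.8%) it lay between 60 bases before and 50 bases after the start, against 3.66% of the promoters of tested genes. A CCAAT box, on either strand, was present in 26 of 33 (78.8%) and in 39.5% of the promoters of tested genes, and 19 of 33 (57.6%) held at least 2, against 15.1%. Both elements were present together in 23 of 33 promoters (69.7%), against 5.74% of those of tested genes. Letters matching a motif are a description of the sequence and show no binding. The stretches below run 5′ to 3′ on the gene's strand from 150 bases before to 30 after the start, with CHR and CCAAT matches in capitals, which read TTCAAA and ATTGG where the match is on the other strand. All 6 genes lie on the minus strand, at chr10:69352883-69353062 (Cdk1), chr13:100786457-100786636 (Ccnb1), chr4:118437314-118437493 (Cdc20), chr1:189688057-189688236 (Cenpf), chr9:22389177-22389356 (Anln) and chr7:135716350-135716529 (Mki67). Cdk1 and Mki67 have 2 CHR matches in this stretch, Cdc20, Cenpf and Anln have 1, and Ccnb1 has none of these letters but 2 CCAAT boxes. Anln has no CCAAT box anywhere in its promoter.
Cdk1: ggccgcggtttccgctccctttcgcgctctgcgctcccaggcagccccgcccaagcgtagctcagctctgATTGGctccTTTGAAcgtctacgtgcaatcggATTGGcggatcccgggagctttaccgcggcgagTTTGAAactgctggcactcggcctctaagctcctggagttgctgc
Ccnb1: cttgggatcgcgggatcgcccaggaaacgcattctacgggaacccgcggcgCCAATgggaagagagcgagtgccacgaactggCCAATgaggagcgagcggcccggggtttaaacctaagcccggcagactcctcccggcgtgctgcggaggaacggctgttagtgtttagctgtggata
Cdc20: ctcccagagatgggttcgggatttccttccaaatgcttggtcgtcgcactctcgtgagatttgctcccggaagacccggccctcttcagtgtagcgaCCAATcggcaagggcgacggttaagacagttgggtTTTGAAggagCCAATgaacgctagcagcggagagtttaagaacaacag
Cenpf: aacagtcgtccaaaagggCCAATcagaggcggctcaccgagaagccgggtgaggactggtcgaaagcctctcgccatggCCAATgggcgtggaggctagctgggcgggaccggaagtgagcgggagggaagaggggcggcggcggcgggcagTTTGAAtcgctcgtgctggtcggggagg
Anln: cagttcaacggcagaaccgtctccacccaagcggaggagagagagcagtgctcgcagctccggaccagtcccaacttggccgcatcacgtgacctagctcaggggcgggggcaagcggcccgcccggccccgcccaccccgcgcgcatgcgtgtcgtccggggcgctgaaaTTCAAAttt
Mki67: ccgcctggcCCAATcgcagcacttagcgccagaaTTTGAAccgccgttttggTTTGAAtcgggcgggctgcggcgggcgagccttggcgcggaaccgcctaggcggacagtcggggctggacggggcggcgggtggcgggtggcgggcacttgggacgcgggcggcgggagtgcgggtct

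The counts were made per RefSeq transcript, so a read in sequence that several transcripts share was assigned to none of them, and the depth behind each member varied with its number of accessions. The 23 members with 1 accession had 2283 to 184945 reads over the 8 libraries. The other 15 have 2 or more accessions and had 0 to 2199 reads. Of those, Tpx2 and Prc1 had 0 reads, Bub1 had 9, Spc25 had 23, Aurka had 27 and Cenpa had 44, and these 6 could not be tested; their low counts say nothing about expression. Another 9, Ttk, Espl1, Birc5, Kif20a, Kif20b, Kif2c, Nuf2, Nusap1 and Ect2, were tested on the small part of their sequence that tells transcripts apart. Levels are given as CPM, reads scaled to the library size by edgeR with its TMM factors. Per kilobase of annotated transcript, which allows genes to be set side by side, the 1-accession members ran in the LIF libraries from 32.1 CPM per kb for the kinesin gene Kif4 to 495 CPM per kb for Top2a, which encodes the topoisomerase that untangles sister chromatids. Ube2c, the ubiquitin-conjugating enzyme of the anaphase-promoting complex, came next in LIF with 323 CPM per kb.

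Library totals ranged from 7221451 to 11447468 counted reads. The coefficient of variation between libraries of a group, with counting noise taken out, was 4.43%. That is edgeR's common estimate over all tested genes. The LIF libraries differed most from each other, with a chi-square per degree of freedom of 4.58, against 1.75 to 2.93 in the other groups, where 1 would be counting noise alone. Of 10 ES cell markers, all were counted in every group, and their summed level was 2459 and 2482 CPM in dTAG, 7451 and 7406 CPM in DMSO, 2422 and 2381 CPM without LIF, and 8070 and 8114 CPM with LIF. Of 10 fibroblast markers, Dcn, Postn and Fap had 0 reads in all libraries, and the list summed to 19.4 and 16.4 CPM in dTAG, 23.4 and 21.4 CPM in DMSO, 20.4 and 19.8 CPM without LIF, and 9.27 and 9.29 CPM with LIF. Pou5f1, the gene of OCT4, had 84.6 and 90.2 CPM in dTAG, 77.5 and 77.8 CPM in DMSO, 205 and 170.3 CPM without LIF and 425 and 336 CPM with LIF; its RNA does not check the loss of the protein. The marker sums join genes that moved in different directions. At the adjusted p threshold used below, 9 of 10 ES cell markers fell with dTAG and 0 rose. Without LIF 7 fell and 2, Utf1 and Tdgf1, rose. Against LIF, 4 were higher in DMSO and 4 lower. Of 4 tested fibroblast markers, 1 rose and 1 fell with dTAG. Without LIF 3 of these rose and 0 fell, and against LIF 1 was higher in DMSO and 0 lower. The part of either marker list in the results below was not tested. In bulk RNA, a smaller share of cells in G2 and M phase and less mitotic RNA per such cell cannot be told apart.

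The first comparison asked how the mitosis genes stood after 24 h with dTAG, the treatment directed at the tagged OCT4. No untagged cells received the compound, so its own effects cannot be told apart from OCT4 loss. Called changes ran mainly downward with dTAG: 14 of the 32 tested genes fell, Mki67 rose and 17 were not called at an adjusted p of 0.05. Among all 10311 tested genes, 20.3% fell, 20.1% rose and 40.5% were called in either direction, so the share of mitosis genes that fell (43.8%) lay above that of all genes and the share that rose (3.12%) below it. They were small, from 1.10-fold for Kif11 to 1.29-fold for Ect2, and none reached the 2-fold that 12.8% of all tested genes were called at. The median log2 fold change of the 32 genes was -0.14, against 0.00 for all tested genes. Of the 23 members with 1 accession 13 fell (56.5%), and of the 9 tested members with 2 or more accessions 1 fell (11.1%). The 1-accession members were well counted, while the 20.3% covers all tested genes, so these shares also differ in depth. Summed over the 38 genes, the level was 11407 and 11449.9 CPM in dTAG and 12402 and 12239 CPM in DMSO, a change of -7.24%. Both dTAG libraries lay below both DMSO libraries for 21 of the 32 genes and above them for 3, against 35.4% and 34.8% of all tested genes.

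Among the cyclins, Ccnb1, Ccnb2 and Ccna2 fell, while Ccnf and the Cdk1-binding subunit gene Cks2 were not called (log2 fold changes -0.07 and -0.11). Ccnb1 had 291 and 279.6 CPM in dTAG and 329 and 341 CPM in DMSO. No dTAG library reached the lower DMSO value of this gene for cyclin B1, the partner of CDK1 at mitotic entry, and the change was 1.18-fold (log2 fold change -0.23, SE 0.06, adjusted p = 0.0020). Of 5 kinases tested, Cdk1, Aurkb and Bub1b fell. Cdk1 had 445 and 451 CPM in dTAG and 530.0 and 550.0 CPM in DMSO. The groups stood well apart, with Cdk1 1.21-fold lower (log2 fold change -0.27, SE 0.05, adjusted p = 0.00011). Aurkb, the kinase of the chromosomal passenger complex, was 1.18-fold lower, and Bub1b, the checkpoint protein BubR1, 1.13-fold lower. Plk1, the Polo-like kinase, gave -0.03 with overlapping groups, and Ttk, a checkpoint kinase counted on few reads, gave 0.50 (SE 0.68) and was not called.

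In the anaphase-promoting complex group, Ube2c had 335 and 331 CPM in dTAG and 400.0 and 389.5 CPM in DMSO, 1.18-fold lower with dTAG (log2 fold change -0.24, SE 0.07, adjusted p = 0.0039). Cdc20, the activator of that complex, did not follow, with 471 and 477 CPM in dTAG and 444 and 457 CPM in DMSO (log2 fold change 0.07, adjusted p = 0.30). Of the partners of Aurkb, Cdca8, which encodes borealin, fell to 224 and 226 CPM in dTAG, against 253 and 252 CPM in DMSO (log2 fold change -0.17, SE 0.05, adjusted p = 0.017), while Incenp, the scaffold of the complex, and Birc5, survivin, were not called. The kinesins fell in 2 of 6 cases. Kif23 had 296 and 294 CPM in dTAG and 352 and 359.7 CPM in DMSO. Kif23, a kinesin of the central spindle that cytokinesis needs, was thus 1.21-fold lower (log2 fold change -0.27, SE 0.05, adjusted p = 0.00020), and Kif11, which pushes spindle poles apart, 1.10-fold lower. Kif4, the chromosome-bound kinesin, lay above DMSO in both dTAG libraries by a margin that was not called (0.07).

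Of 4 kinetochore genes tested, Cenpf alone fell. Cenpf had 735 and 737 CPM in dTAG and 952 and 926 CPM in DMSO. That decrease of 1.28-fold was among the larger ones in the list (log2 fold change -0.35, SE 0.07, adjusted p = 9.8e-05). Cenpe, a kinetochore kinesin, and Ndc80, which forms the microtubule-binding complex together with Nuf2, gave -0.04 and -0.01 with SE of 0.06 and 0.08. Hmmr, a spindle protein, fell to 331 and 339 CPM in dTAG, against 387 and 368 CPM in DMSO (log2 fold change -0.17, SE 0.06, adjusted p = 0.015). Both cytokinesis genes fell: Anln, the actin-binding protein anillin of the cleavage furrow, and Ect2, the exchange factor that activates RhoA there. Anln had 728 and 736 CPM in dTAG and 929.8 and 887 CPM in DMSO. Anln had the smallest adjusted p of the list (log2 fold change -0.31, SE 0.05, adjusted p = 1.7e-05), and Ect2, counted on few reads, was 1.29-fold lower.

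Mki67, the gene of the proliferation antigen Ki-67 that coats mitotic chromosomes, went against the others. Mki67 had 1300.4 and 1359 CPM in dTAG and 1173 and 1135 CPM in DMSO. It was 1.15-fold higher with dTAG (log2 fold change 0.21, SE 0.07, adjusted p = 0.016). The size moved little but the call was lost with DESeq2 (log2 fold change 0.21, adjusted p = 0.21), without DMSO replicate 2 (0.18, adjusted p = 0.096) and without dTAG replicate 2 (0.17, adjusted p = 0.11). Top2a was level, at 2318 and 2319 CPM in dTAG and 2405 and 2345 CPM in DMSO. The decreases of Ccnb1, Cdk1, Ube2c, Kif23, Cenpf and Anln were called under each of 16 alternative analyses, while the other 8 decreases were lost in at least 1, all 8 without at least 1 of the dTAG or DMSO libraries. Without DMSO replicate 2, for example, Aurkb gave -0.22 (adjusted p = 0.056), and without DMSO replicate 1 Ect2 gave -0.31 (0.078), so the sizes moved little while the calls were lost. The number of members called dropped to 9 without DMSO replicate 1, DMSO replicate 2 or dTAG replicate 1 and to 8 without dTAG replicate 2.

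**Figure D1:**
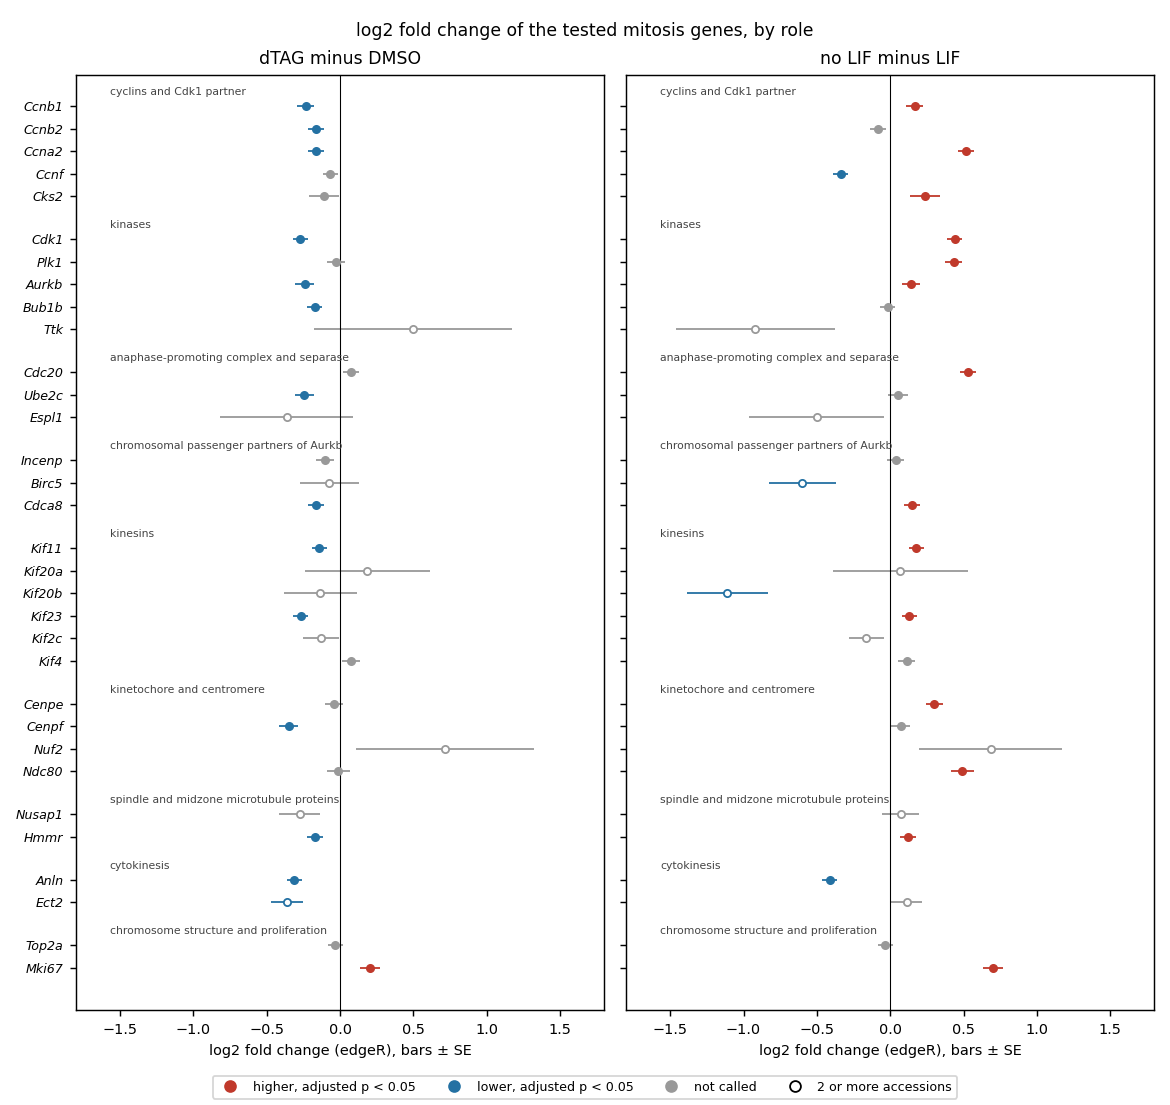
log2 fold change of the 32 tested mitosis genes for dTAG minus DMSO (left) and no LIF minus LIF (right), grouped by role. Bars are standard errors derived from the edgeR test. Red and blue points passed an adjusted p of 0.05, and open points are genes with 2 or more accessions. Among the genes called with dTAG, 14 lie to the left and Mki67 to the right of 0. Without LIF, 14 called genes lie to the right and 4 to the left.

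The second comparison asked how the same genes stood after 5 days without LIF in untagged cells. Here the called changes ran mainly upward: 14 of 32 rose, 4 fell and 14 were not called. Among all tested genes 34% rose, 34.4% fell and 68.4% were called, so the share of mitosis genes called (56.2%) was below that of all genes, while the share that rose (43.8%) was above it and the share that fell (12.5%) below. Changes again were small, with a median log2 fold change of 0.11 against -0.02 for all tested genes. The members' median was 0.045 without no LIF replicate 2 and 0.16 without LIF replicate 2. For the 23 members with 1 accession, the median was 0.14, and 14 rose and 2 fell. For the 9 tested members with 2 or more accessions it was -0.16, and 0 rose and 2 fell. Kif20b, counted on few reads, was the only called member past 2-fold; among all tested genes 33.6% were called and changed at least 2-fold. Summed over the list the level was 12463 and 13082 CPM without LIF and 11719 and 11490.4 CPM with LIF, 10.1% higher without LIF, or 5.69% higher for the 1-accession members once Mki67 was left out. Both libraries without LIF lay above both with LIF for 16 of the 32 genes and below them for 6, against 40.3% and 41.2% of all tested genes.

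The smallest adjusted p was that of Mki67. Mki67 had 1332 and 1621 CPM without LIF and 955 and 857 CPM with LIF. The groups were far apart, although the libraries without LIF differed between themselves, and the gene was 1.63-fold higher (log2 fold change 0.70, SE 0.07, adjusted p = 8.6e-10). Cdc20 followed: Cdc20 had 546 and 524 CPM without LIF and 384 and 357 CPM with LIF, a 1.44-fold increase (log2 fold change 0.53, SE 0.05, adjusted p = 2.0e-09). Of the other genes in its group, Ube2c and Espl1, which encodes separase, the protease that cuts cohesin at anaphase, were not called.

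Of the cyclin group, Ccna2, Ccnb1 and Cks2 rose, and Ccnf fell. Ccna2 had 826 and 826 CPM without LIF and 549 and 605 CPM with LIF. Cyclin A2 RNA was thus 1.43-fold higher (log2 fold change 0.52, SE 0.05, adjusted p = 3.4e-09), with both libraries without LIF almost equal. Ccnf had 475 and 452 CPM without LIF and 592 and 581 CPM with LIF. Ccnf encodes cyclin F, an F-box protein that targets proteins for degradation rather than a CDK partner, and it was 1.26-fold lower (log2 fold change -0.34, SE 0.05, adjusted p = 2.5e-06). Ccnb2 was not called (-0.08). Of the kinases, Cdk1, Plk1 and Aurkb rose. Cdk1 had 575 and 568 CPM without LIF and 414 and 429 CPM with LIF. Cdk1 and Plk1 were 1.36-fold and 1.35-fold higher without LIF (log2 fold change 0.44, SE 0.05, adjusted p = 2.7e-08 for Cdk1), and Aurkb was 1.10-fold higher.

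Ndc80 and Cenpe rose among 4 kinetochore genes, and Cenpf and Nuf2 were not called. Ndc80 had 127 and 108 CPM without LIF and 84.5 and 83.0 CPM with LIF. Ndc80 was 1.41-fold higher (log2 fold change 0.49, SE 0.08, adjusted p = 3.2e-06), and Cenpe was 1.23-fold higher. Cenpf stood at 818 and 898 CPM without LIF and 895 and 738 CPM with LIF, where the LIF libraries alone spanned more than the difference. Kif11 and Kif23 rose among 6 kinesins, by 1.13-fold and 1.09-fold, and Kif20b fell. Kif20b had 37 and 13 reads without LIF and 67 and 45 reads with LIF, or 3.16 and 1.77 CPM without LIF and 5.91 and 5.29 CPM with LIF, and was 2.16-fold lower (log2 fold change -1.11, SE 0.27, adjusted p = 0.00084). Cdca8 rose to 259 and 269 CPM without LIF, against 239 and 236 CPM with LIF (log2 fold change 0.15, SE 0.05, adjusted p = 0.017), whereas its partner Birc5 fell on few reads (log2 fold change -0.60, SE 0.23, adjusted p = 0.024). Birc5 had 4.78 and 7.77 CPM without LIF and 7.68 and 10.8 CPM with LIF. The Birc5 groups overlapped. Hmmr had 449 and 444 CPM without LIF and 394 and 428 CPM with LIF. Hmmr was 1.09-fold higher, close to the threshold (log2 fold change 0.12, SE 0.05, adjusted p = 0.049).

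Anln was the well-counted member that fell furthest. Anln had 668 and 693 CPM without LIF and 887 and 924 CPM with LIF. It was 1.33-fold lower without LIF (log2 fold change -0.41, SE 0.05, adjusted p = 7.5e-08), while Ect2, the other cytokinesis gene, was not called (0.11). Calls for 11 of the 18 genes, Mki67, Cdc20, Ccna2, Cdk1, Plk1, Ndc80, Cenpe, Kif11, Ccnf, Kif20b and Anln, held under each alternative that tested them. Those of Ccnb1, Cks2, Aurkb, Cdca8, Kif23, Hmmr and Birc5 were lost in at least 1. Cks2 and Hmmr lost the call in 11 of 16 alternatives, Aurkb in 10 of 16 and Kif23 in 8 of 16. Cdca8 lost it in 3 of 16, Birc5 in 3 of 15 and Ccnb1 in 2 of 16. Without LIF replicate 1, the log2 fold change was 0.07 for Ccnb1, 0.08 for Aurkb and 0.06 for Hmmr. Birc5 gave -0.22 without no LIF replicate 1 (adjusted p = 0.50) and -0.33 without LIF replicate 2 (0.24).

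**Figure D2:**
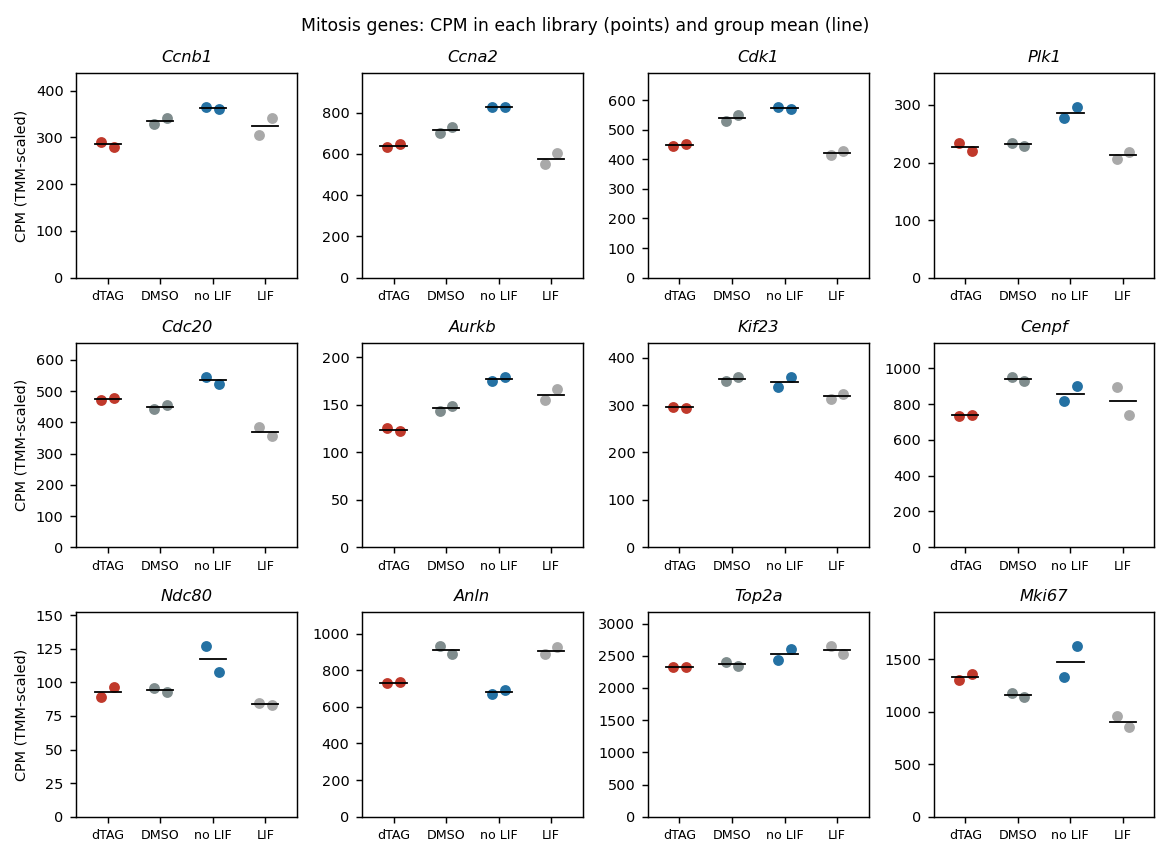
CPM of 12 mitosis genes in each library (points) with the group mean (line), on linear axes from 0, for dTAG and DMSO in the tagged line and no LIF and LIF in the untagged line. Anln is lower in both treated groups, Mki67 is higher in both, and Cdk1 and Ccna2 are lower with dTAG and higher without LIF, each against its own control.

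The dTAG and LIF comparisons share no library, so the response of each gene can be set side by side and their difference tested. The comparisons also differ in cell line, solvent and duration, 24 h against 5 days. The tested difference cannot tell these apart from the treatments. Of the 32 genes, 8 fell with dTAG and rose without LIF: Ccnb1, Ccna2, Cdk1, Aurkb, Cdca8, Kif11, Kif23 and Hmmr. That is 25% of the tested members, against 4.71% of all tested genes. Of these genes only Cdk1 kept both calls under each of 16 alternatives. The rise without LIF was lost in 11 of 16 for Hmmr, 10 for Aurkb, 8 for Kif23, 3 for Cdca8 and 2 for Ccnb1. The fall with dTAG was lost in 5 of 16 for Kif11 and Cdca8, 3 for Ccna2 and Hmmr and 1 for Aurkb. Anln fell in both comparisons, as 11.5% of all tested genes did, and Mki67 rose in both, as 9.31% of all tested genes did. No member rose with dTAG and fell without LIF, against 5.89% of all tested genes. Tested directly, as the dTAG response minus the LIF withdrawal response, the difference was below 0 for 17 members and above 0 for 2, against 26.4% and 28.6% of all tested genes and 55% in either direction. The median difference was -0.31 on the log2 scale, against 0.02 for all tested genes.

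Cdk1 differed most clearly between the responses, with -0.27 for dTAG and 0.44 for LIF withdrawal, a difference of -0.71 (SE 0.07, adjusted p = 5.1e-09). Ccna2 was close behind, with a difference of -0.68 (SE 0.08, adjusted p = 2.6e-08). Both genes thus moved in opposite directions in these comparisons. Ndc80, Mki67, Plk1 and Cdc20 also differed, by -0.50, -0.50, -0.46 and -0.46 on the log2 scale. All 4 rose without LIF, while with dTAG Mki67 rose less and the others were not called. Kif23, Ccnb1, Aurkb, Cenpf, Ect2, Cks2, Cenpe, Kif11, Cdca8, Ube2c and Hmmr had differences between -0.47 and -0.29. Ccnf and Kif20b had differences above 0 (0.27 and 0.97) and both fell without LIF and were not called with dTAG. For Anln the difference was 0.10 (SE 0.07, adjusted p = 0.24) and for Top2a 0.00 (SE 0.07); neither was called. Of the 19 called differences, 15 held under each alternative, and those of Cks2, Ect2, Kif20b and Ube2c were lost in at least 1. Ube2c gave -0.15 without LIF replicate 1 (adjusted p = 0.085) and -0.47 without LIF replicate 2, and Kif20b gave 0.68 without no LIF replicate 2 (adjusted p = 0.14) and 1.52 without no LIF replicate 1.

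**Figure D3:**
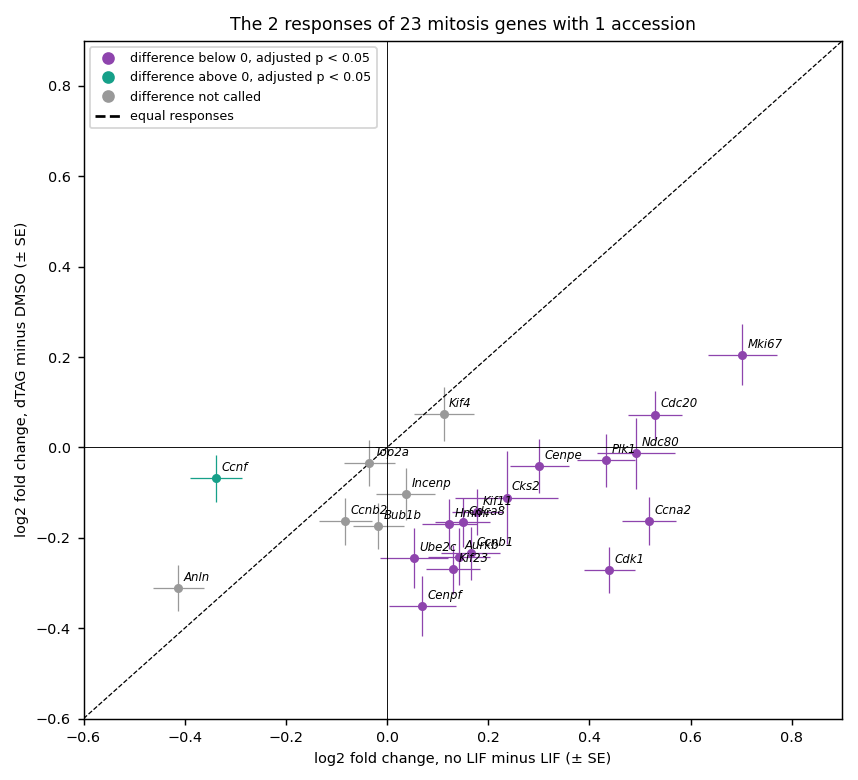
log2 fold change for dTAG minus DMSO against that for no LIF minus LIF in the 23 mitosis genes with 1 accession. Bars are standard errors derived from the edgeR test. Colours mark genes whose 2 responses differed at an adjusted p of 0.05, and the dashed line marks equal responses. Most genes lie below the dashed line, Cdk1 and Ccna2 among the farthest from it, while Anln and Top2a lie near it.

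The third comparison set the tagged line in DMSO against untagged cells with LIF; these are the controls of the first comparisons, so its values are not independent of theirs. In this comparison tag, line, solvent and batch cannot be told apart. In it 7 of 32 mitosis genes were higher, Bub1b was lower and 24 were not called, against 18.5% higher, 22.1% lower and 40.6% called among all tested genes. No called member reached 2-fold, against 9.5% of all tested genes. The median log2 fold change was 0.07, against -0.03 for all tested genes. Both DMSO libraries lay above both LIF libraries for 16 of the 32 genes and below them for 5, against 30.8% and 36.8% of all tested genes. Cdk1 had 530.0 and 550.0 CPM in DMSO and 414 and 429 CPM with LIF. The groups did not overlap, and Cdk1 was 1.28-fold higher, with the smallest adjusted p of the list (log2 fold change 0.36, SE 0.05, adjusted p = 3.8e-06). Ccna2, Cdc20, Ube2c, Mki67, Kif23 and Cenpf were the other higher genes, between 1.12-fold and 1.27-fold. Ccna2 had 701 and 732 CPM in DMSO and 549 and 605 CPM with LIF. Cdc20 had 444 and 457 CPM in DMSO and 384 and 357 CPM with LIF. Mki67 had 1173 and 1135 CPM in DMSO and 955 and 857 CPM with LIF. In each of these 3 genes both tagged libraries lay above both LIF libraries, and so did they for Kif23, the kinesin with the smallest adjusted p, at 352 and 359.7 CPM in DMSO and 313 and 324 CPM with LIF. Cenpf stood at 952 and 926 CPM in DMSO and 895 and 738 CPM with LIF, where LIF replicate 1 came close to the DMSO libraries. Bub1b had 484 and 466 CPM in DMSO and 530.3 and 519 CPM with LIF. Bub1b was 1.11-fold lower, without overlap (log2 fold change -0.14, SE 0.05, adjusted p = 0.025). No gene of the other 3 roles was called; the smallest adjusted p there belonged to Birc5, Hmmr and Anln, with log2 fold changes of 0.34, -0.12 and 0.00. The split depended on scaling, with 10 higher and 0 lower under RLE factors and 6 higher and 4 lower on total library size, and the count was 13 without no LIF replicate 2. Without LIF replicate 2 the call for Cenpf was lost (0.10, adjusted p = 0.15), and Cenpf gave 0.35 without LIF replicate 1. Ube2c gave 0.20 without LIF replicate 1 and 0.52 without LIF replicate 2. The call for Bub1b was lost in 11 of 16 alternatives, among them the one without DMSO replicate 2, where it gave -0.08. That for Kif23 was lost in 3 of 16, also without DMSO replicate 2, and that for Cenpf in 1 of 16. Calls for Ccna2, Cdc20, Cdk1, Mki67 and Ube2c held under each alternative.

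By role, summed CPM weights each gene by its reads, so the best-counted genes dominate. With dTAG the kinase sum was 1228 and 1212 CPM in dTAG and 1393 and 1394 CPM in DMSO, a change of -12.4%. The kinetochore sum, mostly Cenpf, changed by -15.6%, from a mean of 1369 CPM in DMSO to 1155 CPM in dTAG. Mean Cenpf alone went from 939 CPM in DMSO to 736 CPM in dTAG. The sum of the chromosome proteins was 3.39% higher with dTAG, and those of all other roles were lower. The cytokinesis sum, mostly Anln, was 751 and 759.7 CPM in dTAG and 961 and 916 CPM in DMSO, a change of -19.5%. Without LIF the cytokinesis sum changed by -23.8%, at 699 and 728 CPM without LIF and 917 and 954 CPM with LIF. The other 8 roles were higher without LIF, from 5.20% for the partners of Aurkb to 25.6% for the anaphase-promoting complex and separase. In that last role the mean sum was 859 CPM without LIF and 684 CPM with LIF. Mean Cdc20 alone was 535 CPM without LIF and 371 CPM with LIF. For these sums no test was made.

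**Figure D4:**
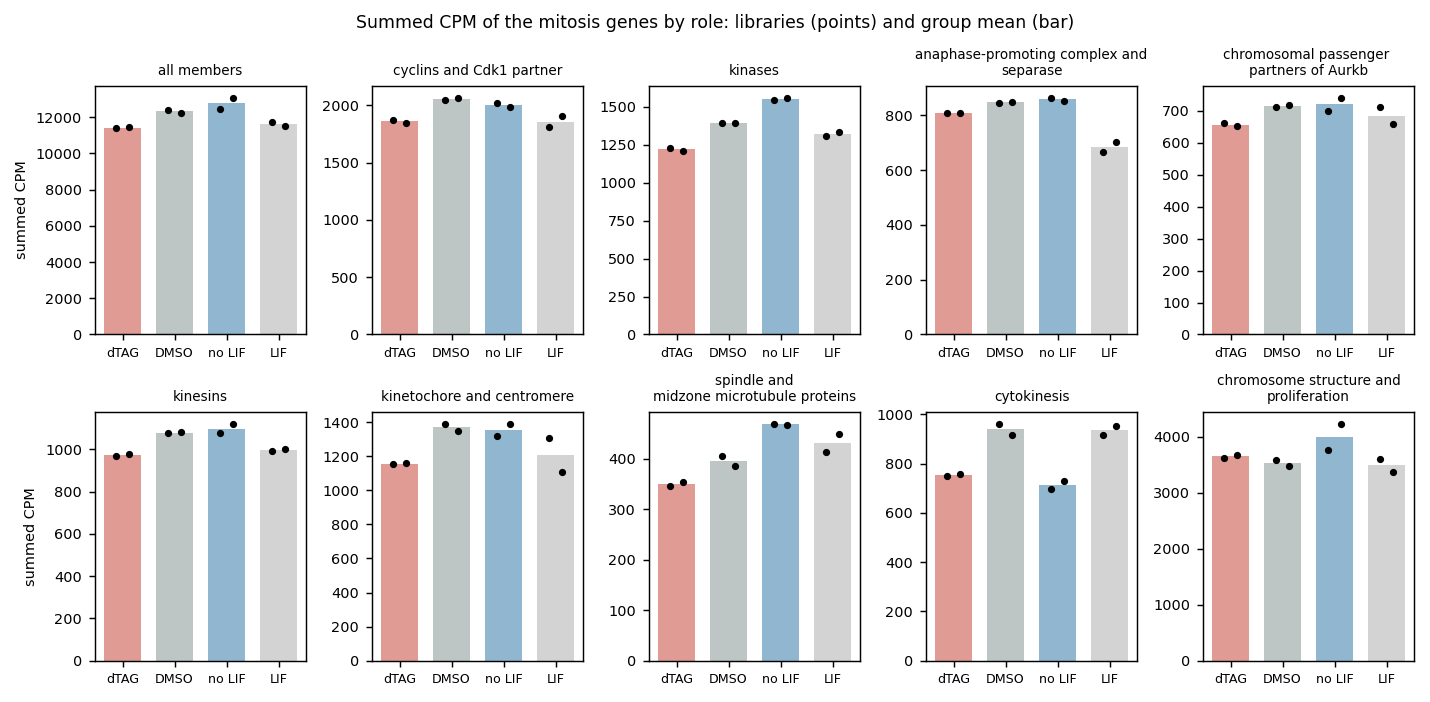
Summed CPM of the mitosis genes in each role, per library (points) and as the group mean (bars, from 0), for dTAG, DMSO, no LIF and LIF. The kinase sum is lowest in dTAG and highest without LIF, and the cytokinesis sum is lower in dTAG and without LIF than in DMSO and with LIF.

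Other genes of division were read from a wider list of 83 further mitosis genes, such as condensins, inner kinetochore proteins and checkpoint genes, of which 66 were tested. With dTAG 30 of them fell (45.5%, against 20.3% of all tested genes) and 2 rose (3.03%, against 20.1%), with a median log2 fold change of -0.20. Cdca5, which encodes sororin, a protector of sister chromatid cohesion, had the smallest adjusted p. Cdca5 had 85.0 and 87.4 CPM in dTAG and 146 and 147 CPM in DMSO. It was 1.70-fold lower (log2 fold change -0.76, SE 0.06, adjusted p = 1.9e-10), a larger change than any called among the 38 members. Cdc25c, a phosphatase that activates CDK1, rose instead, to 129 and 117 CPM in dTAG, against 74.4 and 72.3 CPM in DMSO (log2 fold change 0.75, SE 0.08, adjusted p = 6.7e-09). Without LIF 19 rose (28.8%) and 15 fell (22.7%), both below the 34% and 34.4% of all tested genes, with a median of 0.03. The mitotic kinase gene Pbk fell to 80.5 and 71.3 CPM without LIF, against 147 and 141 CPM with LIF (log2 fold change -0.91, SE 0.07, adjusted p = 8.2e-12), and Ska2, of the kinetochore SKA complex, rose (log2 fold change 0.85, SE 0.07, adjusted p = 1.4e-10). The difference of the responses was called below 0 for 28 (42.4%, against 26.4% of all tested genes) and above 0 for 9 (13.6%, against 28.6%), with Cdca5 first (log2 fold change -1.15, SE 0.09, adjusted p = 2.0e-11) and Ska2 next (log2 fold change -1.06, SE 0.11, adjusted p = 4.6e-09). In the comparison of the controls 18 were higher in DMSO (27.3%, against 18.5% of all tested genes) and 12 lower (18.2%, against 22.1%), Cdca3, a trigger of mitotic entry, by 0.51 and Pimreg by -0.77 on the log2 scale.

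DNA replication and S phase genes were read as the neighbouring phase. With dTAG 11 of 38 tested fell (28.9%, against 20.3% of all tested genes) and 3 rose (7.89%, against 20.1%), with a median of -0.08, and with Orc1, of the origin recognition complex, at -0.31 and Chaf1b, of chromatin assembly factor 1, at -0.29 on the log2 scale. Without LIF 13 fell, a share close to that of all tested genes (34.2% against 34.4%), and 9 rose (23.7%, against 34%), with a median of -0.04. Mcm3, a subunit of the replicative helicase, fell to 824 and 855 CPM without LIF, against 1196 and 1083 CPM with LIF (log2 fold change -0.44, SE 0.05, adjusted p = 5.8e-08), and the DNA ligase gene Lig1, with 3 accessions and few reads, fell by 3.46 on the log2 scale. Between the controls 13 were higher in DMSO (34.2%, against 18.5% of all tested genes) and 3 lower (7.89%, against 22.1%), with a median of 0.14. The helicase gene Mcm2 was 1.60-fold higher in DMSO, while Pola1, which encodes the catalytic subunit of DNA polymerase alpha, was lower, at 289.8 and 266 CPM in DMSO and 358 and 334 CPM with LIF (log2 fold change -0.32, SE 0.06, adjusted p = 8.0e-05). The difference of the responses was called above 0 for 6 of 38 (15.8%, against 28.6% of all tested genes) and below 0 for 8 (21.1%, against 26.4%). It was -0.54 for Rfc3, a subunit of the clamp loader (adjusted p = 7.6e-05), and 2.33 for Lig1 (adjusted p = 8.2e-05).

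Of 17 tested regulators of late cell cycle transcription, Mybl2 had the largest log2 fold change in both responses. Mybl2 had 213 and 209.6 CPM in dTAG and 591 and 580.0 CPM in DMSO. Mybl2 had 239 and 223 CPM without LIF and 687 and 629.6 CPM with LIF. Mybl2, which encodes B-MYB, was 2.77-fold lower with dTAG (log2 fold change -1.47, SE 0.06, adjusted p = 4.4e-17) and 2.85-fold lower without LIF (log2 fold change -1.51, SE 0.06, adjusted p = 3.1e-18). Foxm1, the gene of the other activator, rose without LIF, to 284 and 275 CPM without LIF, against 184 and 187 CPM with LIF (log2 fold change 0.59, SE 0.06, adjusted p = 7.0e-10), and the difference of its responses was called (log2 fold change -0.67, SE 0.08, adjusted p = 6.6e-08). With dTAG, Foxm1 had 245 and 246 CPM in dTAG and 251 and 269 CPM in DMSO (log2 fold change -0.08, SE 0.06, adjusted p = 0.26). Rb1, the retinoblastoma gene, rose with dTAG (log2 fold change 0.54, SE 0.10, adjusted p = 8.7e-05) and was lower in DMSO than with LIF (log2 fold change -0.53, SE 0.10, adjusted p = 0.00013). Foxm1 had the smallest adjusted p of this list between the controls and was higher in DMSO than with LIF (log2 fold change 0.49, SE 0.06, adjusted p = 1.5e-07). E2f4, a factor of the repressive DREAM complex, had the smallest adjusted p for the difference of the responses (log2 fold change -0.71, SE 0.08, adjusted p = 6.0e-08). In this list 5 fell with dTAG (29.4%, against 20.3% of all tested genes) and 1 rose (5.88%, against 20.1%). Without LIF 6 fell (35.3%, against 34.4%) and 4 rose (23.5%, against 34%). Between the controls 3 were higher in DMSO (17.6%, against 18.5%) and 4 lower (23.5%, against 22.1%). Of the differences 2 lay above 0 (11.8%, against 28.6%) and 4 below (23.5%, against 26.4%), so several of these shares were near those of all genes.

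Of 11 tested anaphase-promoting complex subunits and regulators, 1 fell with dTAG (9.09%, against 20.3% of all tested genes) and 2 rose (18.2%, against 20.1%). Without LIF 3 fell (27.3%, against 34.4%) and 4 rose (36.4%, against 34%). Between the controls 1 was higher in DMSO (9.09%, against 18.5%) and 1 lower (9.09%, against 22.1%), and 2 differences lay above 0 and 2 below (18.2% each, against 28.6% and 26.4%). The gene that fell with dTAG was Fbxo5, which encodes the inhibitor EMI1: Fbxo5 had 133 and 125 CPM in dTAG and 180.0 and 181 CPM in DMSO (log2 fold change -0.48, SE 0.06, adjusted p = 4.5e-07). Anapc4, a subunit of the complex, rose with dTAG (log2 fold change 0.33, SE 0.06, adjusted p = 0.00014). Without LIF the subunit genes Anapc7 and Cdc23 fell (log2 fold change -0.53, SE 0.07, adjusted p = 4.7e-07 for Anapc7 and log2 fold change -0.37, SE 0.06, adjusted p = 2.8e-06 for Cdc23). Between the controls Ube2s was lower in DMSO (-0.41) and Fbxo5 higher (0.21). Fbxo5 and Cdc23 had the smallest adjusted p for the difference of the responses (-0.83 and 0.59).

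**Figure D5:**
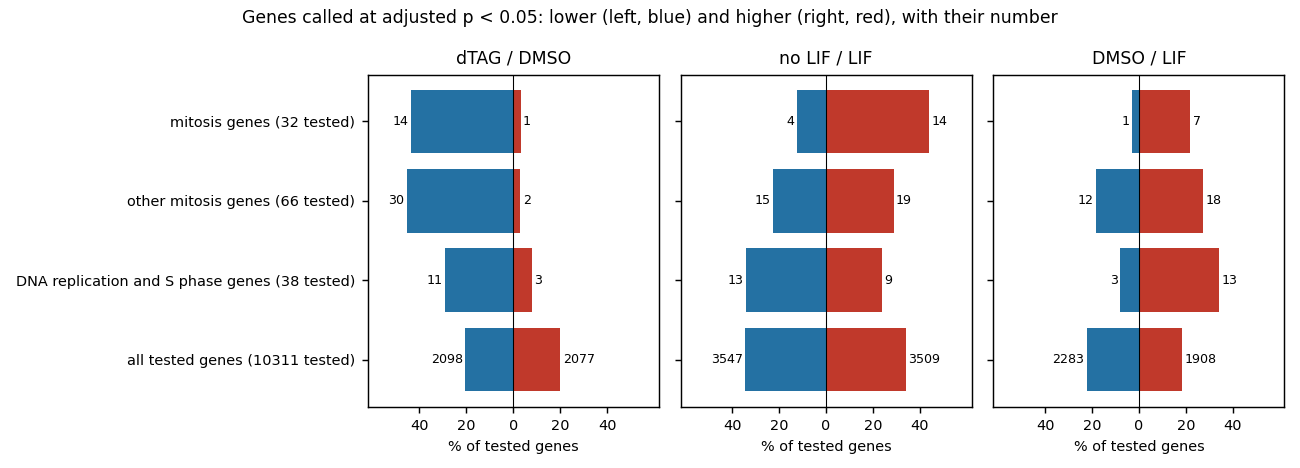
Share of tested genes called lower (left, blue) or higher (right, red) at an adjusted p of 0.05, with their number, for the mitosis genes, the wider mitosis list, DNA replication and S phase genes and all tested genes, in 3 comparisons. With dTAG the bars of both mitosis lists reach further left than that of all genes (43.8% and 45.5% against 20.3%) and barely to the right.

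Promoter elements were also counted by response. Of the 14 members that fell with dTAG, 12 had a promoter sequence, and 11 of these held a CHR and 11 a CCAAT box. Of the 17 that were not called, 15 had one, and 10 held a CHR and 9 a CCAAT box. These 17 include 8 of the 9 members tested with 2 or more accessions. Those had few reads, so the split by response is also a split by depth. In Mki67, which rose, the CHR matches began 116 and 98 bases before the start, outside the narrow window in which 11 of the 12 falling genes had theirs. A CHR also lay in that window in 9 of the 15 promoters of members not called. Whether its position bears on the response was not tested. Among the 68 promoters of the wider mitosis list, 40 held a CHR (58.8%) and 44 a CCAAT box (64.7%). In 31 of the 68 a CHR lay in the narrow window (45.6%).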

How the data were processed

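PolyA RNA of 8 libraries was sequenced. The values are read counts per RefSeq accession, which the authors deposited as 1 table per library; per the submitters' processing notes, HISAT2, HTSeq and build mm9 were used, without stated versions, and the strand setting was not given there or in the labels. Reads lost to HTSeq as ambiguous made up 42.49% of counted and ambiguous reads over all libraries, and reads outside any feature 10.44% to 14.86% of uniquely placed reads; both stayed out of library sizes. Of 41565 accessions, 41325 were named through a RefSeq GRCm38 table and 126 through GENCODE, 114 kept no symbol, and counts were summed per symbol. Genes passing edgeR's filterByExpr were fitted together for all 4 groups with edgeR 4.0.16 (R 4.3.3) by the quasi-likelihood test with TMM factors and Benjamini-Hochberg adjustment over 10311 genes at 0.05. Alternatives were DESeq2 1.42.0, other scalings and filters, 1-accession genes, a replicate block and leaving out each library. The fit was tested on simulated data with known changes.

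Library values are given for the member with the smallest adjusted p in each role and for called members against the majority; of the 4 other cell cycle lists, the 2 genes with the smallest adjusted p per comparison were named, and Foxm1 with dTAG was added after its values were seen. The members and lists were chosen with earlier results of these data known.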

Additional observations from a re-analysis of the deposited data

How the results depend on the processing

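No result reversed its direction, and 37 of 60 calls of members held under each alternative that tested them. Asking also for an absolute log2 fold change of at least 0.5 left 0 members called with dTAG, 5 without LIF, 0 between the controls and 4 for the difference of the responses. Leaving out 1 library at a time gave 8 to 15 called members with dTAG, 13 to 21 without LIF, 6 to 13 between the controls and 17 to 19 for the difference, with medians of -0.16 to -0.13, 0.045 to 0.16, 0.057 to 0.12 and -0.33 to -0.24 on the log2 scale; leaving out a library removes a replicate, and a group then has 1 library, assumed to vary like the others. The median without LIF was 0.16 with RLE factors and 0.16 with DESeq2. Between the controls it was 0.040 on total library size, 0.10 with DESeq2, 0.10 without a filter, 0.13 for genes with 1 accession and 0.11 with only the libraries compared; the cause was not tested. Replicates with the same number did not deviate together (correlations of -0.00982 to 0.0462). Counting noise is part of these deviations, so the correlations cannot tell whether libraries were handled in pairs. With a replicate block 15, 17, 8 and 19 members were called in the comparisons as ordered above. Over all tested genes, the controls differed in 2751 genes with DESeq2, against 4191 in the edgeR fit. With 2 libraries a group, smaller changes than those called may be missed.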
